A study of Mus musculus with 9 samples.

Results

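The integrin and laminin subunit genes were described in callus RNA taken on day 7 after a femoral fracture. They were chosen by symbol alone, as every gene named as an integrin alpha or beta subunit or as a laminin alpha, beta or gamma chain, with Itgax not included. The table held 36 of them among 22054 genes, of which 17 encode integrin alpha subunits, 8 integrin beta subunits and 11 laminin chains. The mice were male C57BL/6J animals, labelled as 7 weeks old, and all of them had the fracture. From the day after surgery they received daily intraperitoneal injections of 200 μl for 1 week. The H-151 group was given a STING inhibitor (750 nmol), the SR-717 group a STING activator (30 mg/kg) and the control group PBS. Each group had 3 libraries, and the labels do not say whether a library came from 1 animal or from pooled animals. The labels describe an extraction from cell lines, whereas the tissue is given as bone. All 10 osteoblast, 10 osteoclast and 10 chondrocyte markers were detected in every library.

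Integrins are cell surface receptors built from 1 alpha and 1 beta subunit. They bind matrix proteins outside the cell and the actin cytoskeleton inside it, and the alpha subunit largely sets the ligand. Collagen, laminin, fibronectin and other proteins with an RGD motif, and counter-receptors on other cells are each bound by their own subset, and leukocytes carry integrins of their own. Laminins are trimers of 1 alpha, 1 beta and 1 gamma chain that form the sheet of basement membranes around vessels, muscle fibers, nerves and epithelia. In bone, osteoclasts use the pair of Itgav and Itgb3 to attach to the mineral surface.

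Total counts ranged from 16987398 to 23272480 per library, and the 36 genes took 0.285% to 0.382% of them. On a principal component analysis of log2 values, SR-717 replicate 1 stood apart at -100.6 on the first component (46.6% of the variance). PBS replicate 1 was at -38.8 and the other 7 libraries lay between 4.03 and 28.8. All 10 neutrophil markers were highest and all 10 chondrocyte markers were lowest in SR-717 replicate 1. In RNA from whole callus, more cells of a type and more RNA per cell cannot be told apart.

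Levels were compared between genes in TPM, a unit scaled for gene length and for the size of each library. Itgb1, the beta subunit that pairs with most matrix-binding alpha subunits, had the highest mean level over the 9 libraries, at 302 TPM (range 253 to 368). Itgb5 (177 TPM), the leukocyte subunit Itgb2 (145 TPM), the laminin chain Lamc1 (116 TPM) and the fibronectin receptor subunit Itga5 (90.3 TPM) followed. The 5 genes with the highest means together held 55.2% to 61.4% of the summed TPM of all 36 in each library. A mean of at least 10 TPM was reached by 18 genes and a mean of at least 1 TPM by 29. The 7 genes under 1 TPM were Lamb3, Itga8, Itgad, Itgb8, Lama1, Lamc3 and Itgae. Of the 35 pairs of genes next to each other in this order, only Itgb1 and Itgb5 stood in the same order in all 9 libraries, and each of the other pairs changed places in at least 1 library.

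**Figure D1:**
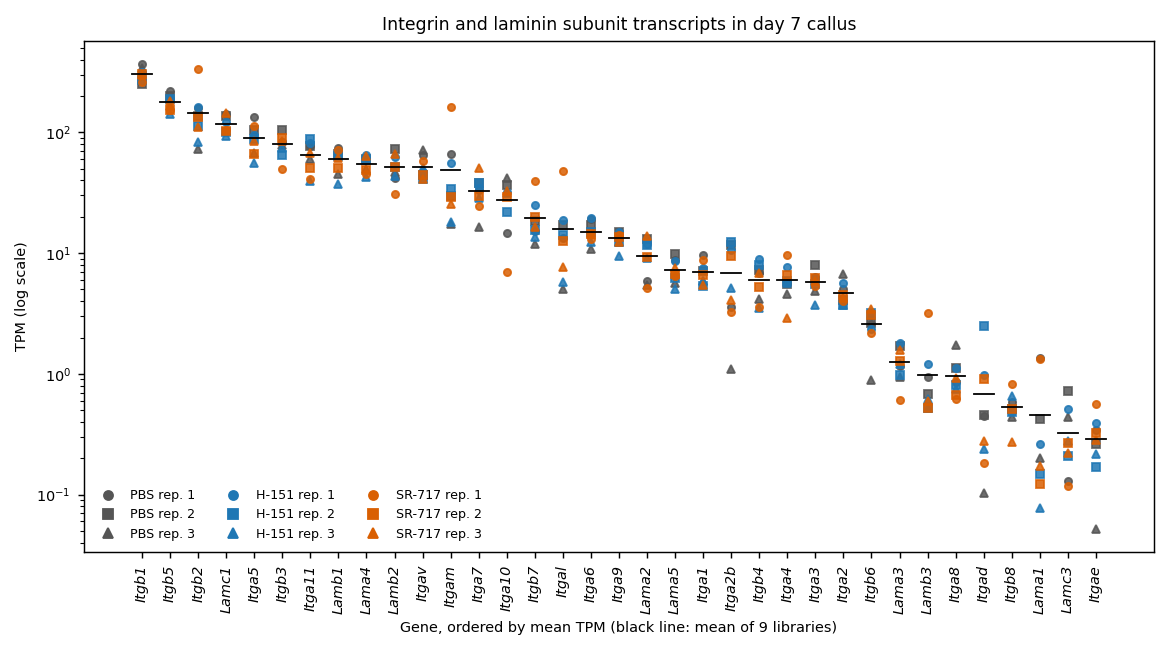
TPM on a log scale for 35 of the 36 genes, ordered by their mean; each point is 1 library (color for group, shape for replicate number) and the black line is the mean of the 9 libraries. Levels run from 302 TPM for Itgb1 to 0.289 TPM for Itgae, and the SR-717 replicate 1 points of Itgb2, Itgam, Itgal and Lamb3 lie above all others.

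To ask whether STING activation and inhibition moved these genes, the groups were compared in pairs. Fold changes are log2 ratios with their standard errors (SE), fitted on counts with edgeR's quasi-likelihood test over all genes. A gene was called at an unadjusted p under 0.05 with at least a 1.5-fold change, and separately at a Benjamini-Hochberg adjusted p under 0.05. Between SR-717 and H-151, 0 of 36 genes were called, beside 0.756% of the 14151 genes tested. Between SR-717 and PBS, 0 of 35 were called, beside 0.519% of 14070. Between H-151 and PBS, 1 of 35 was called, Lama1, which was lower with H-151, beside 0.426% of 14085. DESeq2 called the same 0, 0 and 1 of them, and 0 of 36 were called in either SR-717 comparison without SR-717 replicate 1. Both comparisons with PBS used the same 3 PBS libraries, and p-values measure only the spread between these libraries.

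None of the 36 genes passed an adjusted p under 0.05 with edgeR or with DESeq2 in any of the 3 comparisons, where edgeR called 0% of all genes in each. An unadjusted p under 0.05 was found with edgeR for 0, 0 and 1 of them, beside 1.03%, 0.689% and 0.646% of all genes. The median log2 fold change of the 36 genes was 0.08 for SR-717 against H-151, where it was 0.02 over all genes. It was -0.03 for SR-717 against PBS (0.01 over all genes, 35 subunit genes tested) and -0.08 for H-151 against PBS (-0.02 over all genes, 35 tested). Itgad was too low to be tested against PBS with SR-717, and Itgae was too low to be tested against PBS with H-151.

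**Figure D2:**
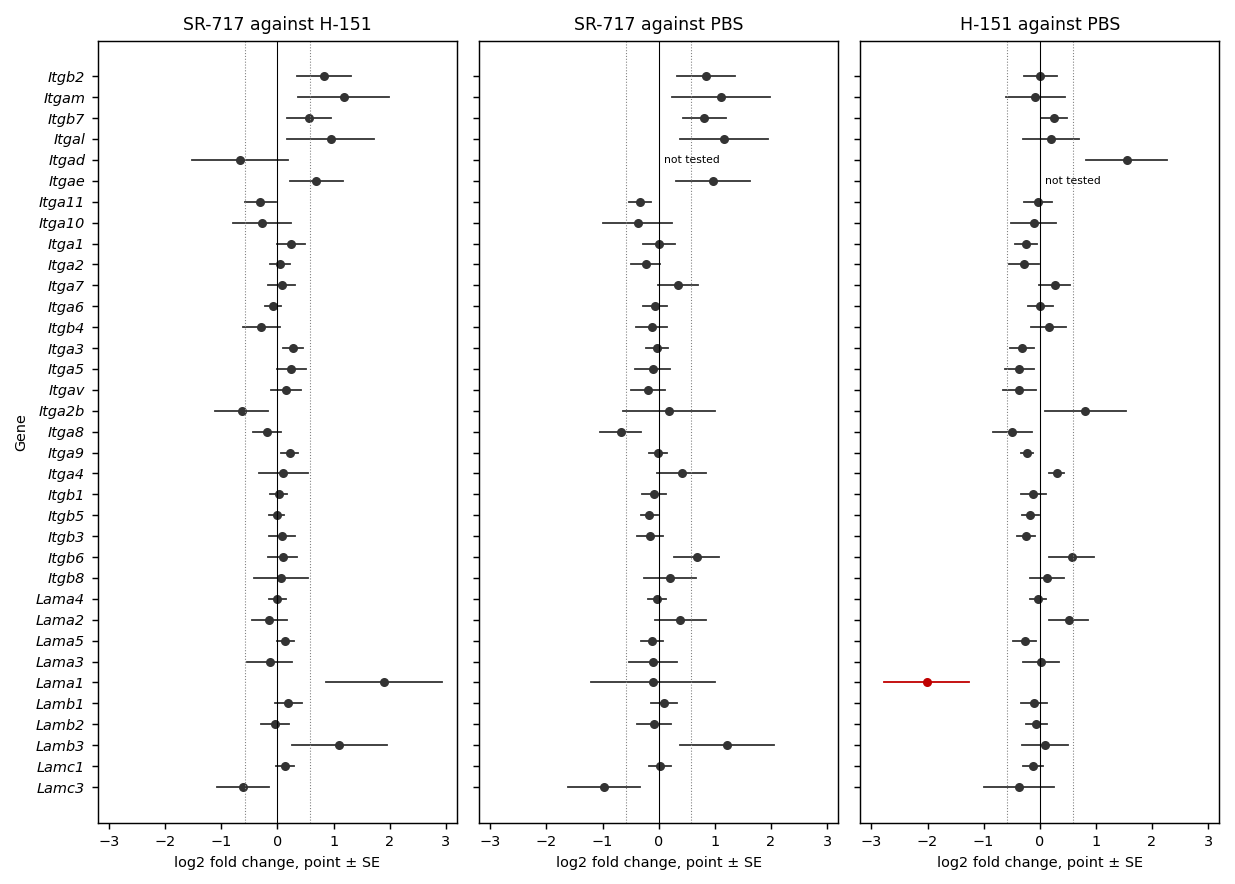
Log2 fold changes of 35 of the 36 genes in the 3 comparisons, grouped by role; points are edgeR estimates, bars are ± 1 SE and dotted lines mark 1.5-fold. Lama1 with H-151 against PBS, at -2.02, is the only point past both thresholds (red).

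The libraries with the same replicate number deviated together in both comparisons with PBS, though only weakly for replicate 3 of SR-717 and PBS. For replicates 1 to 3, r was 0.650, 0.341 and 0.139 for SR-717 and PBS, and 0.305, 0.485 and 0.503 for H-151 and PBS. Libraries with different numbers were not correlated as a reference. Both comparisons were also fitted with the replicate number as a block. With the block, 1 of 35 genes was called for SR-717 against PBS, beside 3.15% of all genes, and this was Itgb2, which was higher. For H-151 against PBS 4 of 35 were called, beside 1.86% of all genes: Lama1 was lower, and Lama2, Itga2b and Itgad were higher. Between SR-717 and H-151, libraries with the same number deviated together less for replicates 2 and 3 (r = 0.0621 and 0.0793) than for replicate 1 (r = 0.342). For this comparison the block gave 0 of 36, beside 1.01% of all genes. None passed an adjusted p under 0.05 with the block either. Leaving out single libraries also moved these counts, together with the share of all genes called. For SR-717 against H-151, 2 of 36 were called without SR-717 replicate 2, Lama1 (higher) and Itga2b (lower), beside 2.69% of all genes. Without SR-717 replicate 3 it was 1 of 36, Itgb2 (higher), beside 4.60% of all genes. Against PBS, 2 of 36 were called without SR-717 replicate 3, Itga4 and Itgb7 (both higher), beside 2.22% of all genes. Without PBS replicate 1 it was 1 of 36, Lamc3 (lower), beside 0.823%. Between H-151 and PBS, the count was 5 of 36 without PBS replicate 2 (Lama1 lower, and Itga2b, Itga7, Itgad and Lama2 higher), beside 4.91% of all genes. It was 0 without H-151 replicate 2 (beside 0.302%) or PBS replicate 1 (beside 0.808%), and without H-151 replicate 3 only Itgad was called (higher), beside 0.695%.

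The leukocyte integrins differed widely between libraries. Itgb2 (chromosome 10, 77530252 to 77565708 in GRCm38) pairs with Itgal to form LFA-1, which holds leukocytes to endothelium, and with Itgam to form Mac-1, the adhesion and complement receptor of neutrophils and macrophages. In CPM, counts scaled to library size after TMM but not for gene length, Itgb2 stood at 235, 193 and 117 CPM in PBS replicates 1 to 3, at 229, 172 and 148 CPM in H-151 replicates 1 to 3, and at 584, 219 and 174 CPM in SR-717 replicates 1 to 3. Itgam stood at 161, 69.3 and 45.2 CPM in PBS replicates 1 to 3, at 126, 84.0 and 50.5 CPM in H-151 replicates 1 to 3, and at 454, 77.1 and 64.2 CPM in SR-717 replicates 1 to 3. Both were highest in SR-717 replicate 1 and lowest in PBS replicate 3, and the 3 groups overlapped. Itgal followed the same order at both ends, at 30.9, 38.2 and 12.3 CPM in PBS replicates 1 to 3, at 42.9, 35.5 and 15.1 CPM in H-151 replicates 1 to 3, and at 131, 32.0 and 19.0 CPM in SR-717 replicates 1 to 3. Itgb7, which pairs with Itga4 or Itgae on lymphocytes and was added after its values were seen, stood at 21.6, 24.0 and 16.2 CPM in PBS replicates 1 to 3, at 31.1, 21.0 and 21.1 CPM in H-151 replicates 1 to 3, and at 58.4, 26.9 and 23.4 CPM in SR-717 replicates 1 to 3. It was again highest in SR-717 replicate 1 and lowest in PBS replicate 3.

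**Figure D3:**
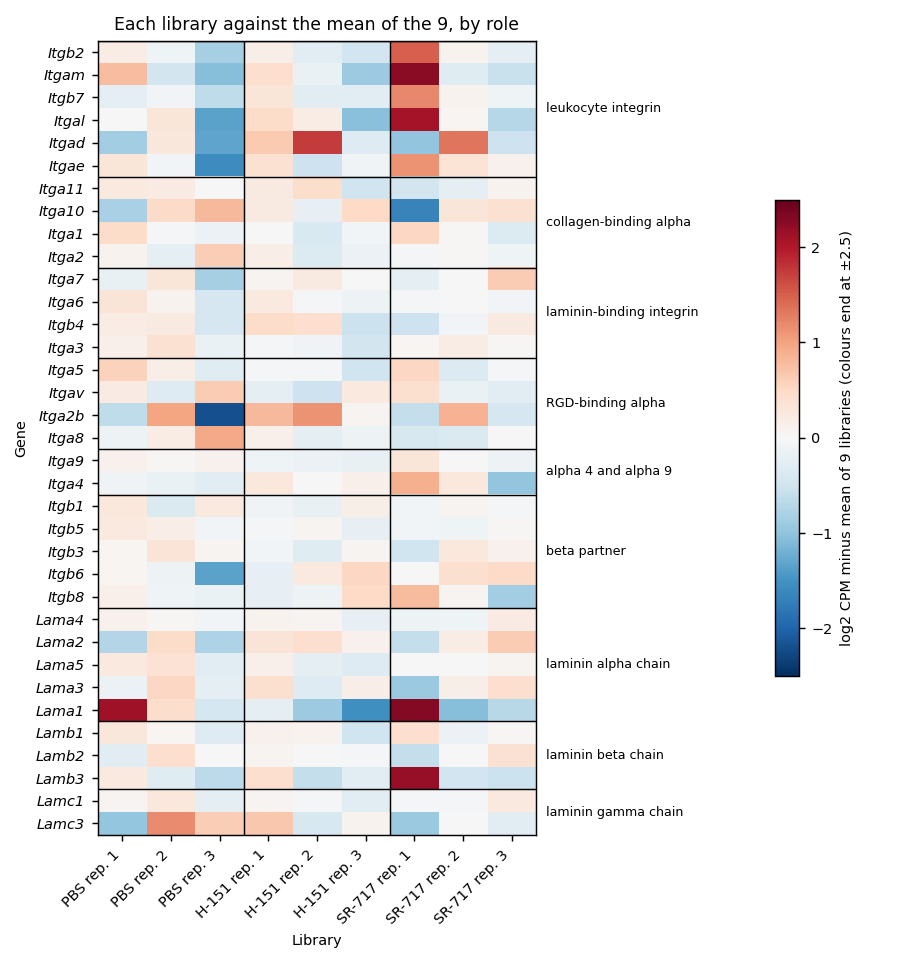
Log2 CPM of 35 of the 36 genes in each library, each minus its mean over the 9 libraries, with genes grouped by role and libraries by group. SR-717 replicate 1 is red for Itgb2, Itgam, Itgb7, Itgal, Lama1 and Lamb3 and blue for Itga10.

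In the SR-717 group, 5 of the 6 leukocyte integrin genes had higher estimates than in the H-151 group, with a median log2 fold change of 0.76 beside 0.02 over all genes, and none was called. The log2 fold change against H-151 was 1.18 ± 0.82 (SE) for Itgam, 0.95 ± 0.77 for Itgal, 0.82 ± 0.48 for Itgb2 and 0.56 ± 0.39 for Itgb7. Against PBS it was 1.11 ± 0.87 for Itgam, 1.16 ± 0.78 for Itgal, 0.84 ± 0.51 for Itgb2 and 0.81 ± 0.39 for Itgb7 (unadjusted p = 0.0767). Without SR-717 replicate 1, Itgam turned to -0.31 against H-151 and -0.38 against PBS. Itgal turned to -0.30 and -0.08, and Itgb2 went to 0.10 and 0.11. Itgb7 went to 0.0339 and 0.29. With the replicate block, Itgb2 was at 0.69 ± 0.26 against PBS (unadjusted p = 0.0467, adjusted p = 1.00). Between H-151 and PBS, Itgb2 differed by 0.01 ± 0.29 and Itgam by -0.08 ± 0.52, less than their SE.

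The 10 neutrophil markers (S100a9, S100a8 and Ngp are the highest of them) moved with these genes, and their part in the result was not tested. Their summed level stood at 3636, 3011 and 606 CPM in PBS replicates 1 to 3, at 4809, 4652 and 1358 CPM in H-151 replicates 1 to 3, and at 14772, 3953 and 2589 CPM in SR-717 replicates 1 to 3. All 10 were highest in SR-717 replicate 1 and lowest in PBS replicate 3, as Itgam was. Of 10 macrophage markers 9 were highest in SR-717 replicate 1, where their sum was 3323 CPM beside 1074 to 1954 CPM elsewhere. All 10 T and NK cell markers were highest there too (81.7 CPM beside 18.4 to 39.8 CPM). None of these markers was at 0 in any library.

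Mouse Itgam lies on chromosome 7 (GRCm38, 128062640 to 128118491, plus strand), on the same chromosome as Itgal (127296260 to 127335138) and Itgad (128154376 to 128223816). Myeloid genes often carry sites for the ETS factor PU.1, with the core GAGGAA, and lymphoid and myeloid genes carry sites for RUNX factors, with the core TGTGGT. Both were looked up on both strands in the 250 bases before RefSeq gene starts (GRCm38.p6). These windows were found for 22 of the 36 genes, some with several starts. GAGGAA lay in 13 of their 25 windows (52.0%) and in 23.3% of all 32851 windows, and TGTGGT in 2 of 25 (8.0%) and in 14.0% of all. Of the leukocyte integrin genes, only Itgam and Itgb7 had a window, and only that of Itgam held GAGGAA. All other matches to GAGGAA lay in genes of other roles, such as Itga11, Itga5, Lama2, Lamb1 and Lamb2. No window was found for Itgb2, Itgal, Itgad or Itgae. The 3 windows below are shown because Itgam and Itgb7 were among the genes that moved together, while Itgb1 varied little. Capitals mark GAGGAA, or TTCCTC where it lies on the other strand.
Itgam, plus strand, chr7:128062390-128062639: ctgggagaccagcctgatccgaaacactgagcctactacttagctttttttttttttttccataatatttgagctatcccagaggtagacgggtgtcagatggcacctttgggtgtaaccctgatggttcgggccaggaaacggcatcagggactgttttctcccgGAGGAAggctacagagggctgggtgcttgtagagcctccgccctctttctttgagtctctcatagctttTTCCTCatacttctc
Itgb7, minus strand, chr15:102231936-102232185: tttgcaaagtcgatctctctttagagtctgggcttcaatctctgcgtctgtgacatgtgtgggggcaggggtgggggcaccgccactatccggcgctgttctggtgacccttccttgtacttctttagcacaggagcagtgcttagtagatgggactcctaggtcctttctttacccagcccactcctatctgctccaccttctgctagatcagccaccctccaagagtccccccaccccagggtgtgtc
Itgb1, plus strand, chr8:128685404-128685653: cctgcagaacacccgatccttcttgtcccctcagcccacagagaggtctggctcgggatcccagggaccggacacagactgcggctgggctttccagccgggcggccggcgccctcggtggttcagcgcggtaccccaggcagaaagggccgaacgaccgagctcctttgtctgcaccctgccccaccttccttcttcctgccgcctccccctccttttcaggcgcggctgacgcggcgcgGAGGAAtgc
The Itgam window held 2 matches to GAGGAA, the Itgb1 window 1 and the Itgb7 window 0, and none of the 3 held TGTGGT. A match here is a string of letters and not a measured site.

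The remaining leukocyte genes were low. Itgad, an Itgb2 partner of macrophages, stood at 0.342, 0.887 and 0.225 CPM in PBS replicates 1 to 3, at 1.18, 2.66 and 0.556 CPM in H-151 replicates 1 to 3, and at 0.310, 1.97 and 0.467 CPM in SR-717 replicates 1 to 3, from rounded counts of 4 to 54. Its 2 highest libraries were H-151 replicate 2 and SR-717 replicate 2, and the groups overlapped. The log2 fold change for H-151 against PBS was 1.55 ± 0.73 (unadjusted p = 0.0715), and 1.57 ± 0.38 with the replicate block (unadjusted p = 0.00691, adjusted p = 1.00). Itgae, the partner of Itgb7 on tissue-resident T cells, had rounded counts of 2 to 25 per library.

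Among the collagen receptors, Itga11, a receptor subunit of fibroblasts and osteogenic cells, had the highest level (64.7 TPM). It stood at 199.6, 194 and 167 CPM in PBS replicates 1 to 3, at 198, 229 and 119 CPM in H-151 replicates 1 to 3, and at 123, 142 and 179.7 CPM in SR-717 replicates 1 to 3. The highest libraries were in the H-151 and PBS groups, the lowest was H-151 replicate 3, and the groups overlapped. The SR-717 group was at -0.31 ± 0.28 against H-151 and -0.34 ± 0.19 against PBS, and neither was called. Itga1 (31.1 to 58.1 CPM) and Itga2 (13.8 to 26.9 CPM) varied less than Itga10.

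Itga10, the collagen receptor subunit known from chondrocytes, was added after its values were seen. It stood at 38.7, 93.8 and 118 CPM in PBS replicates 1 to 3, at 79.4, 58.5 and 95.3 CPM in H-151 replicates 1 to 3, and at 21.3, 83.5 and 88.8 CPM in SR-717 replicates 1 to 3. It was lowest in SR-717 replicate 1, then in PBS replicate 1, and the other 7 libraries lay above both. The log2 fold change was -0.28 ± 0.52 for SR-717 against H-151 and -0.37 ± 0.62 against PBS, and it turned to 0.14 and 0.05 without SR-717 replicate 1. Summed chondrocyte markers (Col2a1, Comp and Col11a2 are the highest of the 10) stood at 1977, 17056 and 9854 CPM in PBS replicates 1 to 3, at 12023, 11077 and 6141 CPM in H-151 replicates 1 to 3, and at 533, 9623 and 5731 CPM in SR-717 replicates 1 to 3. Their 2 lowest libraries were the same as those of Itga10, but their sum was highest in PBS replicate 2 and Itga10 in PBS replicate 3. Summed osteoblast markers were also low in SR-717 replicate 1 (22654 CPM), H-151 replicate 2 (29518 CPM) and PBS replicate 1 (29873 CPM). They stood at 35244 to 45669 CPM elsewhere. The part of either list in the levels of Itga10 was not tested.

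**Figure D4:**
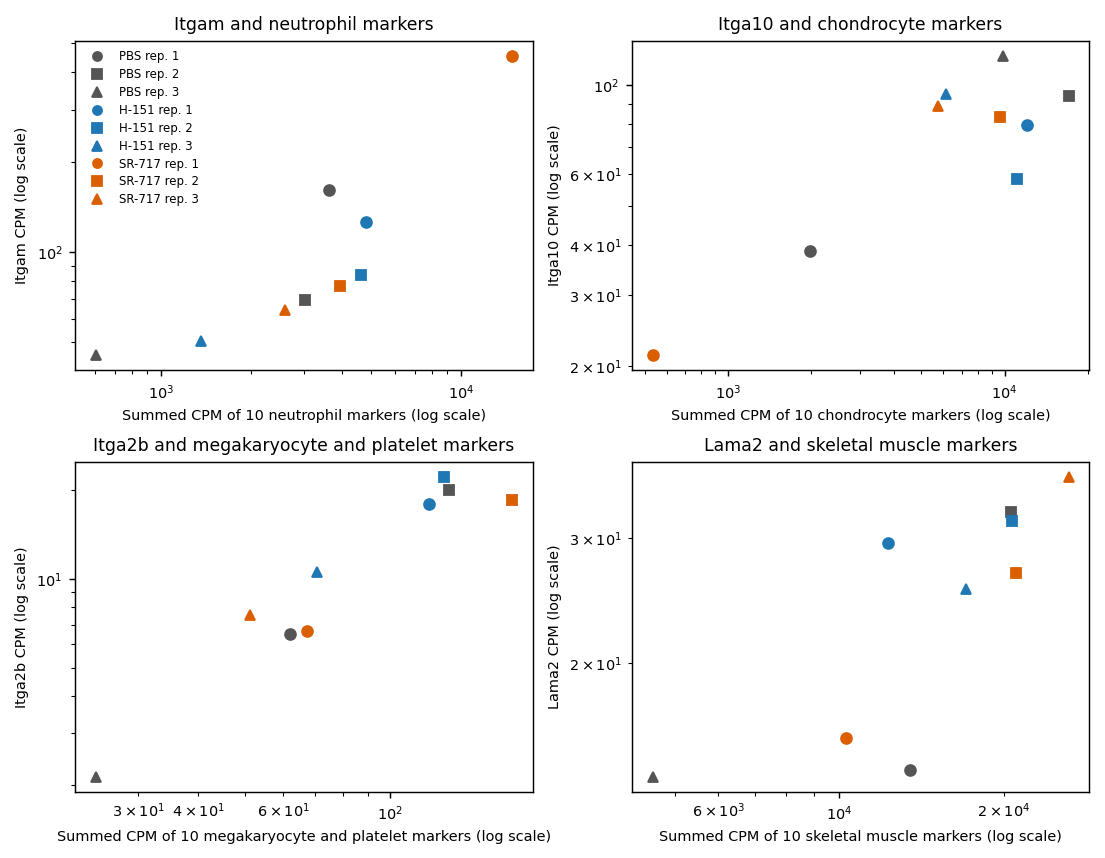
CPM of Itgam, Itga10, Itga2b and Lama2 against the summed CPM of 10 markers of neutrophils, chondrocytes, megakaryocytes and platelets, and skeletal muscle, both on log scales; each point is 1 of the 9 libraries. SR-717 replicate 1 lies at the top right for Itgam (454 CPM) and at the bottom left for Itga10 (21.3 CPM), and PBS replicate 3 lies at the bottom left for Itga2b (2.13 CPM).

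Of the laminin receptor subunits, Itga7, which is abundant in skeletal muscle, was the highest (32.7 TPM). It stood at 41.5, 58.9 and 26.8 CPM in PBS replicates 1 to 3, at 49.5, 55.3 and 47.9 CPM in H-151 replicates 1 to 3, and at 40.8, 47.1 and 73.8 CPM in SR-717 replicates 1 to 3. It was lowest in PBS replicate 3 and highest in SR-717 replicate 3, and the groups overlapped. The 10 skeletal muscle markers summed to 4550 CPM in PBS replicate 3 and 26289.7 CPM in SR-717 replicate 3, also their lowest and highest libraries. The 10 smooth muscle and pericyte markers had the same lowest and highest libraries, at 1125 and 1802 CPM. The part of either list was not tested. Itga6 (25.4 to 42.1 CPM) and its partner in hemidesmosomes Itgb4 (12.4 to 25.0 CPM) had log2 fold changes smaller than their SE in all 3 comparisons. Itga3 was the only gene whose groups did not overlap between SR-717 and H-151, where 5.18% of all genes did not. It stood at 16.2, 19.4 and 13.3 CPM in PBS replicates 1 to 3, at 14.5, 13.9 and 10.8 CPM in H-151 replicates 1 to 3, and at 15.4, 17.1 and 15.3 CPM in SR-717 replicates 1 to 3. All 3 SR-717 libraries were above all 3 H-151 libraries, and the log2 fold change was 0.27 ± 0.17 (unadjusted p = 0.168).

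The fibronectin receptor subunit Itga5 had the highest level of the alpha subunits that bind RGD motifs. It stood at 311, 233 and 168 CPM in PBS replicates 1 to 3, at 201, 205 and 147 CPM in H-151 replicates 1 to 3, and at 297, 165 and 200.5 CPM in SR-717 replicates 1 to 3. PBS replicate 1 and SR-717 replicate 1 were the 2 highest libraries, and the log2 fold change was 0.25 ± 0.26 for SR-717 against H-151 and -0.36 ± 0.26 for H-151 against PBS. Itga8 (2.17 to 5.62 CPM), a receptor subunit for nephronectin, was at -0.67 ± 0.37 for SR-717 against PBS (unadjusted p = 0.113), and at -0.30 without PBS replicate 3.

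For the osteoclast pair, Itgav stood at 188, 131 and 253 CPM in PBS replicates 1 to 3, at 137, 114 and 193 CPM in H-151 replicates 1 to 3, and at 216, 146 and 136 CPM in SR-717 replicates 1 to 3. Itgb3 stood at 253, 306 and 257 CPM in PBS replicates 1 to 3, at 233, 198 and 257 CPM in H-151 replicates 1 to 3, and at 173, 295 and 263 CPM in SR-717 replicates 1 to 3. Itgb3 was lowest in SR-717 replicate 1 and highest in PBS replicate 2, Itgav was highest in PBS replicate 3, and the groups of both overlapped. Neither was called: Itgav was at 0.16 ± 0.26 and Itgb3 at 0.08 ± 0.23 for SR-717 against H-151. For H-151 against PBS, Itgav was at -0.36 ± 0.29 and Itgb3 at -0.25 ± 0.16. With the replicate block Itgav was at -0.35 ± 0.12 (unadjusted p = 0.0330, adjusted p = 1.00), which is under 1.5-fold. Without the block, and with single libraries left out, Itgav ran from -0.60 without H-151 replicate 3 to -0.10 without PBS replicate 3, with -0.21 without H-151 replicate 2 and -0.56 without PBS replicate 2. The 10 osteoclast markers summed to 5841 to 10890.1 CPM, with the lowest sum in SR-717 replicate 1, and their part in the levels of Itgb3 was not tested.

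Itga2b, the platelet fibrinogen receptor subunit that pairs with Itgb3, was added after its values were seen. It stood at 6.51, 20.0 and 2.13 CPM in PBS replicates 1 to 3, at 17.9, 22.2 and 10.6 CPM in H-151 replicates 1 to 3, and at 6.66, 18.5 and 7.53 CPM in SR-717 replicates 1 to 3. PBS replicate 3 was the lowest library and H-151 replicate 2 the highest, and replicates within the PBS group differed more than the group means. The log2 fold change was 0.81 ± 0.73 for H-151 against PBS, and 1.24 ± 0.41 with the replicate block (unadjusted p = 0.0254, adjusted p = 1.00). Without the block it was 1.97 without PBS replicate 2, where it was called, and 0.34 without PBS replicate 3. Summed megakaryocyte and platelet markers were 24.5 CPM in PBS replicate 3 and 51.1 to 179.5 CPM elsewhere, and their part was not tested. The ratio of Itgb3 to Itga2b in TPM ranged from 5.31 to 71.5.

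Itga9, which binds tenascin and osteopontin, and Itga4, which binds Vcam1 and fibronectin, were the 2 genes whose groups did not overlap between H-151 and PBS, where 3.87% of all genes did not. Itga9 stood at 46.2, 43.5 and 46.1 CPM in PBS replicates 1 to 3, at 39.5, 38.5 and 37.5 CPM in H-151 replicates 1 to 3, and at 53.0, 42.8 and 39.3 CPM in SR-717 replicates 1 to 3. All 3 H-151 libraries were below all 3 PBS libraries, at -0.23 ± 0.11 (unadjusted p = 0.0731). Itga4 stood at 28.7, 27.2 and 25.3 CPM in PBS replicates 1 to 3, at 36.4, 30.5 and 33.1 CPM in H-151 replicates 1 to 3, and at 56.2, 36.5 and 15.2 CPM in SR-717 replicates 1 to 3. All 3 H-151 libraries were above all 3 PBS libraries, at 0.30 ± 0.13 (unadjusted p = 0.0608), and both changes were under 1.5-fold. No gene of the 36 was without overlap between SR-717 and PBS, where 3.75% of all genes were.

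The beta subunits were compared as shares of the summed TPM of all 8. Itgb1 held 41.6% ± 6.11 (SD over 9 libraries), Itgb5 24.3% on average, Itgb2 19.3% ± 8.28 and Itgb3 11.0%. In CPM, Itgb1 stood at 712, 463 and 707 CPM in PBS replicates 1 to 3, at 561, 523 and 657 CPM in H-151 replicates 1 to 3, and at 569, 627 and 579 CPM in SR-717 replicates 1 to 3. It was highest in PBS replicate 1 and lowest in PBS replicate 2, so that the PBS group spanned the range of the other 2 groups. The share of Itgb2 stood at 18.5, 18.9 and 10.7 % in PBS replicates 1 to 3, at 20.7, 16.9 and 13.4 % in H-151 replicates 1 to 3, and at 39.7, 18.8 and 15.7 % in SR-717 replicates 1 to 3. SR-717 replicate 1 was the only library in which Itgb2 had a larger share than Itgb1. The mean share of Itgb2 in the SR-717 group was 7.76 percentage points above the H-151 group and 8.74 above the PBS group (exact permutation test, two-sided, p = 0.5 for both). These differences were 0.269 and 1.25 percentage points without SR-717 replicate 1. Over the 24 comparisons of beta shares, no exact p reached the smallest value that 3 libraries against 3 allow, 0.1. Itgb6 (2.36 to 8.78 CPM) and Itgb8 (1.23 to 4.13 CPM), which activate latent TGF-beta in other tissues, took under 1% of the beta TPM.

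**Figure D5:**
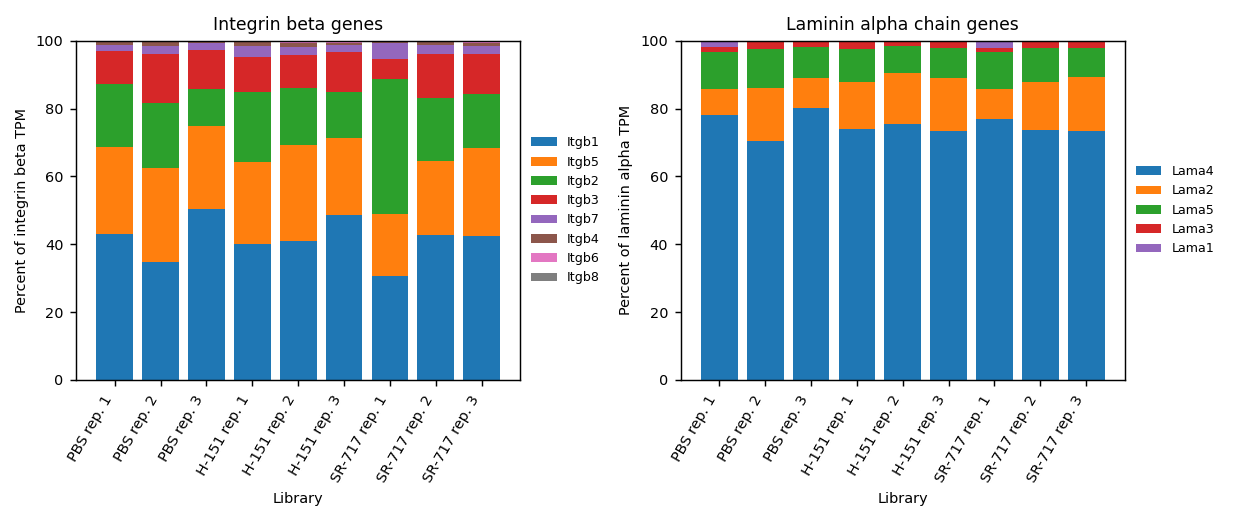
Share of each gene in the summed TPM of the 8 integrin beta genes (left) and the 5 laminin alpha chain genes (right), with 1 stacked bar per library. Itgb2 takes 39.7% in SR-717 replicate 1 and 10.7% to 20.7% elsewhere, and Lama4 takes 70.6% to 80.3% of the laminin alpha TPM.

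Among the laminin genes, the summed TPM was 58.3 to 86.9 for the alpha chains, 81.6 to 138.6 for the beta chains and 96.6 to 147.2 for the gamma chains. The ratio of gamma to alpha chains was 1.64 ± 0.175 (SD over 9 libraries), and that of beta to alpha chains was 1.54 ± 0.115. The gamma chain sum was 131 ± 22.1 TPM (SD, n = 3) in PBS, 109 ± 15.3 TPM in H-151 and 120.1 ± 22.9 TPM in SR-717. Over 9 comparisons of summed chains, the smallest exact two-sided permutation p was 0.2, for the gamma chains between H-151 and PBS, with an adjusted p of 1.00.

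Lama4, an alpha chain of endothelial and mesenchymal cells, held 75.1% ± 2.94 of the alpha TPM (SD over 9 libraries). It stood at 193, 182 and 169.7 CPM in PBS replicates 1 to 3, at 189, 188 and 156 CPM in H-151 replicates 1 to 3, and at 164, 167 and 206 CPM in SR-717 replicates 1 to 3. The groups overlapped, at -0.02 ± 0.16 for SR-717 against PBS and -0.03 ± 0.14 for H-151 against PBS. Lama5 (34.8 to 56.0 CPM), also a chain of vessel basement membranes, held 9.79% of the alpha TPM on average. Lama3 (2.48 to 6.97 CPM), an epithelial chain, held 1.69%.

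Lama2, the alpha chain around muscle fibers and Schwann cells, was added after its values were seen. It stood at 14.1, 32.6 and 13.8 CPM in PBS replicates 1 to 3, at 29.5, 31.6 and 25.4 CPM in H-151 replicates 1 to 3, and at 15.6, 26.7 and 36.5 CPM in SR-717 replicates 1 to 3. PBS replicates 1 and 3 and SR-717 replicate 1 were the 3 lowest libraries, and the 3 H-151 libraries lay within the range of the PBS group. The log2 fold change for H-151 against PBS was 0.51 ± 0.35, and 0.63 ± 0.24 with the replicate block (unadjusted p = 0.0420, adjusted p = 1.00). Without the block it was 1.06 without PBS replicate 2, where it was called, 0.32 without PBS replicate 1 and 0.30 without PBS replicate 3. The skeletal muscle markers summed to 10288 CPM in SR-717 replicate 1, 13475 CPM in PBS replicate 1 and 4550 CPM in PBS replicate 3. In 5 of the other 6 libraries they were higher than all 3, and in H-151 replicate 1 the sum was 12252 CPM. Summed Schwann cell markers were lowest in PBS replicates 3 and 1 (49.4 and 49.9 CPM). H-151 replicate 1 (71.2 CPM) and SR-717 replicate 1 (73.7 CPM) followed. The adipocyte markers had the same 3 lowest libraries as Lama2, at 149 to 174 CPM beside 199 to 277 CPM elsewhere. The part of these lists in the levels of Lama2 was not tested.

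Lama1 (chromosome 17, 67697259 to 67822647 in GRCm38), best known from embryonic basement membranes, was the single gene called. It stood at 6.79, 2.03 and 1.07 CPM in PBS replicates 1 to 3, at 1.23, 0.739 and 0.444 CPM in H-151 replicates 1 to 3, and at 7.64, 0.657 and 0.876 CPM in SR-717 replicates 1 to 3, from rounded counts of 8 to 148. PBS replicate 1 and SR-717 replicate 1 stood above the other 7 libraries, and H-151 replicate 1 lay above PBS replicate 3, so the groups overlapped. The log2 fold change for H-151 against PBS was -2.02 ± 0.75 (unadjusted p = 0.0321, adjusted p = 1.00). With the replicate block it was -1.80 ± 0.38 (unadjusted p = 0.00350, adjusted p = 1.00), and without PBS replicate 1 it was -0.94 and not called. For SR-717 against H-151 it was 1.90 ± 1.03, and -0.09 without SR-717 replicate 1. Its share of the alpha TPM was 0.209% ± 0.0868 (SD, n = 3) with H-151 and 0.854% ± 0.773 with PBS, with an exact two-sided permutation p of 0.1, the smallest that the design allows, and an adjusted p of 0.9 over 15 comparisons of alpha shares.

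The beta chains were led by Lamb1 and Lamb2, which held 53.0% and 46.1% of the beta TPM on average. Lamb1 stood at 224, 191 and 146 CPM in PBS replicates 1 to 3, at 197, 194 and 129 CPM in H-151 replicates 1 to 3, and at 246, 165 and 188 CPM in SR-717 replicates 1 to 3. The ratio of Lamb2, the beta chain of neuromuscular junctions and kidney filters, to Lamb1 was 0.432 in SR-717 replicate 1, 0.563 in PBS replicate 1 and 0.810 to 1.18 in the other 7 libraries. The epithelial chain Lamb3 stood at 2.40, 1.61 and 1.24 CPM in PBS replicates 1 to 3, at 2.70, 1.28 and 1.61 CPM in H-151 replicates 1 to 3, and at 9.39, 1.41 and 1.34 CPM in SR-717 replicates 1 to 3. Apart from SR-717 replicate 1 (182 rounded counts) all its libraries lay under 3 CPM, from rounded counts of 22 to 55. The SR-717 group was at 1.10 ± 0.84 against H-151 and 1.21 ± 0.84 against PBS, and at -0.45 and -0.34 without that library. Of 10 keratinocyte markers 7 were at 0 in some library (Krt5 and Krt14 among them), and the sum was 24.4 CPM in SR-717 replicate 1 and 9.32 to 21.7 CPM elsewhere.

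Lamc1, the gamma chain of most laminins, held 97.1% of the gamma TPM on average. It stood at 329, 379.5 and 267 CPM in PBS replicates 1 to 3, at 331, 309 and 258 CPM in H-151 replicates 1 to 3, and at 311, 304 and 372 CPM in SR-717 replicates 1 to 3. PBS replicate 2 and SR-717 replicate 3 were the highest, H-151 replicate 3 was the lowest, and the groups overlapped. Its log2 fold change was 0.13 ± 0.16 for SR-717 against H-151 and -0.12 ± 0.19 for H-151 against PBS. Lamc3 (0.400 to 2.11 CPM) had rounded counts of 7 to 50.

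The spread of the subunit genes was set beside that of all genes. Over the 33 of them with a mean of at least 1 CPM, the median SD of log2 CPM across the 9 libraries was 0.398, and it was 0.290 over the 13517 genes of that level. SR-717 replicate 1 was the highest library for 11 of the 33 (33.3%, beside 27.4% of all genes) and the lowest for 5 (15.2%, beside 25.9%). H-151 replicate 3 was the lowest for 11 (33.3%, beside 8.82%), and PBS replicate 3 for 10 (30.3%, beside 15.9%). As the highest library, H-151 replicate 3 stood for 1 (3.03%, beside 8.95%) and PBS replicate 3 for 4 (12.1%, beside 17.9%).

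The genes that act with integrins and laminins were read from 3 lists. Of the 15 basement membrane partners of laminins 13 were tested and 0 were called in any comparison. The 2 highest, Col4a1 and Col4a2, which form the collagen IV network that laminin sheets are linked to, were at -0.38 ± 0.21 (SE) and -0.37 ± 0.22 for H-151 against PBS. Of the 25 integrin activators and linkers 24 were tested and 0 were called. Rap1b, a small GTPase that switches integrins on, was at 0.85 ± 0.50 for SR-717 against H-151, with 898 CPM in SR-717 replicate 1 and 215 to 590.3 CPM elsewhere. The integrin linked kinase gene Ilk was at -0.18 ± 0.14. Of the 20 integrin ligands 16 were tested, and 1, Ccn2, was called. It was lower with SR-717 than with PBS, a comparison in which 0.519% of all genes were called. Ccn2, a matricellular ligand of several integrins, stood at 272, 219 and 208 CPM in PBS replicates 1 to 3, at 167, 266 and 177 CPM in H-151 replicates 1 to 3, and at 104, 154 and 158 CPM in SR-717 replicates 1 to 3. All 3 SR-717 libraries were below all 3 PBS libraries, at -0.75 ± 0.22 (unadjusted p = 0.0140, adjusted p = 1.00). Between these groups 3.75% of all genes were without overlap.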

How the data were processed

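Callus RNA was sequenced as poly(A)-selected, strand-specific libraries by a service company, with 3 libraries in each group, and the labels' processing notes name the build mm10. The aligner, the counting program and the annotation are not given in the sources used here, and use of the strand in counting is not stated, so counts of overlapping genes are uncertain. The authors deposited 1 table with expected counts for each gene, not normalized, and 4 of the 36 genes had fractional values. The deposited TPM values were scaled by the authors for gene length. All columns of per-sample values were read. Gene positions and symbols were matched to GENCODE GRCm38 by Ensembl identifier (36 of 36), and promoter windows came from RefSeq GRCm38.p6.

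After rounding, pairs of groups (6 libraries, no covariates) were tested by the quasi-likelihood method of edgeR 4.0.16 under R 4.3.3 with TMM scaling, keeping genes that passed filterByExpr (minimum count 10, total 15), with Benjamini-Hochberg adjustment over all genes tested. Each SE is the log2 fold change divided by the root of its F value. The thresholds of 0.05 and 1.5-fold follow the study, which does not say whether its p was adjusted. Exact permutation tests, two-sided, served for summed TPM and shares, with adjusted values within each family. The scripts were tested on simulated data. Libraries with the same replicate number had correlated deviations from their group means for SR-717 and PBS (r = 0.650, 0.341 and 0.139) and for H-151 and PBS (0.305, 0.485 and 0.503), and for SR-717 and H-151 less so (0.342, 0.0621 and 0.0793). The numbers come from the labels, which do not say what they stand for.

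Every subunit gene entered the counts of genes, and 1 is not reported here on its own. Values in every library were given for genes past the thresholds, the gene with the highest TPM of each role, genes whose highest library was at least 3 times the median, and genes said to have been added after their values were seen, as were Itgav, Itgb3, Itga3 and Itga4. From lists of partner genes, those past the thresholds or the 2 with the highest TPM were named, and from marker lists up to 3. The genes and lists were chosen with earlier results of these data known. Alternatives were DESeq2 1.42.0 size factors and its Wald test, no filter, a minimum mean count of 50, a fit of all 9 libraries, the replicate block, CPM in place of TPM, and each library left out in turn.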

Additional observations from a re-analysis of the deposited data

How the results depend on the processing

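The number of subunit genes called between H-151 and PBS was 1, and it was 4 with the replicate block. It was 0 with all 9 libraries in 1 fit. It was also 0 with a mean count of at least 50, where Lama1 was too low to be tested. Between SR-717 and PBS the number was 0, and 1 with the replicate block. The share of all genes called was 0.489% (mean count of at least 50) to 1.48% (DESeq2) for SR-717 against H-151, 0.298% (mean count of at least 50) to 3.15% (replicate block) against PBS, and 0.226% (mean count of at least 50) to 1.86% (replicate block) for H-151 against PBS. Leaving out single libraries gave 0 to 2 for each SR-717 comparison, beside 0.448% to 4.60% of all genes against H-151 and 0.661% to 2.22% against PBS, and 0 to 5 for H-151 against PBS, beside 0.302% to 4.91%. No subunit gene passed an adjusted p under 0.05 under any alternative run. In CPM, not scaled for length, the ratio of gamma to alpha chains was 1.28, that of beta to alpha chains 1.28 and the share of Lama4 70.2%. Of 22 named log2 fold changes, 9 changed sign when SR-717 replicate 1 was left out. With each library left out in turn, Itgam ranged from -0.31 to 1.60 against H-151 and -0.38 to 1.79 against PBS, Itgal from -0.30 to 1.38 and -0.0838 to 1.59, Itga10 from -0.57 to 0.14 and -0.72 to 0.0540, Lamb3 from -0.45 to 1.52 and -0.34 to 1.62, and Lama1 from -0.0942 to 2.38 against H-151. The replicate block turned no sign among the 22; it moved Itgb2, Lama2 and Itga2b, and also Itgad, past the thresholds, and the cause was not tested. Itgad, Itgae and Lamc3, with at most 54 counts in any library, are limited by depth. So is Lama1, with 119 counts in PBS replicate 1, 148 in SR-717 replicate 1 and 8 to 48 in each other library. Lamb3, with 182 counts in SR-717 replicate 1 and 22 to 55 in each other library, and Itgb8, with 21 to 80, share this limit.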
